A study of Mus musculus with 7 samples.

Results

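The xenobiotic receptors CAR (*Nr1i3*), PXR (*Nr1i2*) and AHR (*Ahr*) are described here with 5 genes that work with them, *Arnt*, *Ahrr*, *Tiparp*, *Nr3c1* and *Rxra*. These 8 genes were picked by symbol from a table of 14851 Ensembl identifiers, and each matched 1 row. The table holds normalised counts from RNA-seq of livers taken 8 h after CCl4, a solvent that hepatocyte enzymes convert into reactive radicals. Of the 7 livers, 4 came from mice with floxed *Trp53* (*Albumin-Cre; p53* FL/FL, called FL) and 3 from mice with intact *Trp53* (*Albumin-Cre; p53* WT/WT, called WT). Both genotypes carry Cre under the *Albumin* promoter, which is active in hepatocytes, so that *Trp53* is deleted there in FL mice. Cell types in which this promoter was never active keep the gene. All were C57BL/6J males, backcrossed for 10 generations and about 70 days old, given 1 intraperitoneal dose of CCl4 at 1 mL/kg from a 20% stock in corn oil. Some mice of each genotype in the study also carried a *Rosa26* LSL-tdRFP reporter, and which of these 7 did is not given in the sources used here. Livers without CCl4 were not analysed here, so a response to CCl4 itself could not be measured. The source names of the WT mice share 1 prefix that those of the FL mice lack. What the prefix stands for is not given in the sources used here, and it cannot be told apart from genotype.

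CAR, PXR and AHR are ligand-sensing transcription factors that set how much drug-metabolising enzyme and transporter the liver makes. CAR and PXR are nuclear receptors that bind DNA as heterodimers with RXRα, the product of *Rxra*, and their best known hepatic targets are the Cyp2b and Cyp3a genes. AHR waits in the cytoplasm with HSP90, pairs with ARNT in the nucleus once a ligand such as dioxin is bound, and activates Cyp1a genes as well as *Ahrr* and *Tiparp*, which both feed back to restrain it. *Nr3c1* encodes the glucocorticoid receptor, which supports transcription of CAR and PXR in hepatocytes.

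AHR with ARNT recognises the core GCGTG, and *Ahrr* is a textbook AHR target, so its promoter is shown with those of the CAR and PXR genes for contrast. The bases before the transcription start were taken from RefSeq (GRCm38.p6) and are written in the direction of the gene, with each match to GCGTG on either strand in capitals.

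*Ahrr*, chr13:74292332-74292581, minus strand: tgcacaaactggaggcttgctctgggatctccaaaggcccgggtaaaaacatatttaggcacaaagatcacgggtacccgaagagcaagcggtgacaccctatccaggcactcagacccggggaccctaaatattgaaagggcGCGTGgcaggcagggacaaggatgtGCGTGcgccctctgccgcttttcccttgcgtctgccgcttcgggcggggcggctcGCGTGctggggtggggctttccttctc

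*Nr1i3*, chr1:171213720-171213969, plus strand: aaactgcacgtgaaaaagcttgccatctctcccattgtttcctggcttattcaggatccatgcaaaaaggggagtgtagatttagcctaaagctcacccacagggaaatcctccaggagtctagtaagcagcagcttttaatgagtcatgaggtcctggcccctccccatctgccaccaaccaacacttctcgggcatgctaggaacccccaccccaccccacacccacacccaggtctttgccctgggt

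*Nr1i2*, chr16:38294825-38295074, minus strand: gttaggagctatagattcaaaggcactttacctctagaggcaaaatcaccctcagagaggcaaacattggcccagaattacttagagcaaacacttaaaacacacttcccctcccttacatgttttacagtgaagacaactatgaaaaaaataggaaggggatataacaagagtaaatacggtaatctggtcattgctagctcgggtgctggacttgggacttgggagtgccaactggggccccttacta

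Of these, the *Ahrr* window holds 3 matches, which begin 107, 82 and 27 bases before the start, and the other 2 windows hold 0. *Tiparp* and *Arnt* have 1 match each in the same 250 bases, beginning 170 and 29 bases before the start, and the 2 *Rxra* windows have 0. The *Tiparp* window, chr3:65528197-65528446, runs past the GENCODE start of that gene at 65528410. An annotated exon also covers its first base. Among 32851 RefSeq promoters of this length, 28.2% hold at least 1 match and 2.77% at least 3. A p53 half-site, searched by its consensus without a mismatch, occurs once in the *Ahrr* window and in none of the other windows named here, against 7.13% of all promoters. A match describes the letters and is not evidence of binding. *Ahr* and *Nr3c1* have no entry in the promoter table.

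The normalised counts are read counts per gene divided by a size factor for each library and rounded to whole numbers. From the spacing of the low values, between 11900000 and 19500000 reads were estimated for the libraries. *Trp53* stood at 131, 130, 217 and 110 in FL livers 1 to 4, against 876, 688 and 831 in WT livers 1 to 3 (log2 fold change -2.47, limma adjusted p = 0.0447), and its groups did not overlap. The adjusted p was above 0.05 in 10 of 17 alternatives, while the log2 fold change stayed between -2.78 and -2.35 in all 17. On the first principal component, WT replicate 2 (82.0) and, less so, FL replicate 3 (29.2) stood apart from the other livers (-25.6 to -19.1). The receptor genes and the lists related to them are therefore also given without these livers. They were picked from these same values, so the spread left in that fit is likely too small. At an unadjusted p under 0.05 it had 9.74% of all tested genes, against 3.2% with all livers. Its p-values and counts are therefore descriptive.

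None of the receptors or their partners differed between the genotypes beyond the spread between livers. *Rxra* was the most abundant of the 8 genes per kilobase, *Nr1i2* and *Nr1i3* came next, and *Ahrr* was at the limit of detection. *Rxra*, *Arnt* and *Nr3c1* varied little over the 7 livers, the highest being 1.2, 1.35 and 1.38 times the lowest. *Tiparp*, *Ahr* and *Nr1i3* spread most (4.67, 2.61 and 1.77 times), and FL replicate 3 was the lowest FL liver and WT replicate 2 the lowest WT liver for each of them.

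Of the 8 genes, 7 passed the filter on low values and 0 had a limma adjusted p under 0.05, against 0.0159% of all 12545 genes tested, which were all lower in FL livers. At an unadjusted p under 0.05 the count was also 0, against 3.2% of all genes. No gene of the 7 had separate ranges in the 2 genotypes, against 4.76% of all genes (1.98% lower and 2.77% higher in FL). In mean log2 level 5 of them were higher and 2 lower in FL livers, and 51.6% of all genes were higher. Their median log2 fold change was 0.04 and that of all tested genes 0.01. Their median absolute log2 fold change was 0.04, against 0.12 for all tested genes. A p-value above the threshold does not show equal levels, and the intervals give what these livers allow: narrow for *Rxra*, *Arnt* and *Nr3c1*, wide for *Ahr* and *Tiparp*.

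**Figure D1:**
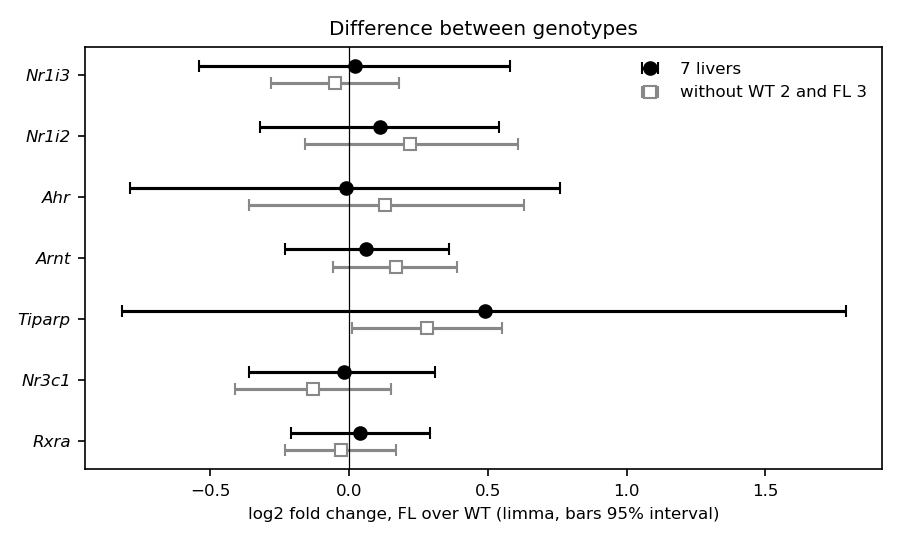
log2 fold change of FL over WT livers from limma, with 95% intervals, for the 7 tested genes in all livers (black circles) and without WT replicate 2 and FL replicate 3 (grey squares). The black intervals all include 0. That of *Tiparp*, from -0.82 to 1.79, narrows to 0.01 to 0.55 without the 2 livers. These livers were picked from the same values, so the grey intervals are likely too narrow.

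Levels can be compared between genes only per length, so the normalised count was divided by the exon length of each gene in kilobases. *Rxra*, the shared dimer partner, had 1695 ± 103 normalised counts per kilobase (SD over the 7 livers), more than 97.5% of all genes in the table. *Nr1i2* had 503 ± 82.9 per kilobase and *Nr1i3* 262 ± 57.0 per kilobase. By this length the ranges of these 3 genes overlapped neither each other nor those of the remaining genes. The order of *Rxra* above *Nr1i2* above *Nr1i3* thus held in 7 of 7 livers. *Nr3c1* followed at 107 ± 13.2 per kilobase, *Tiparp* at 88.7 ± 39.9, *Arnt* at 76.9 ± 7.5 and *Ahr* at 76.6 ± 24.2. Neighbours in this order had overlapping ranges and did not differ beyond their spread. The order of *Arnt* and *Ahr*, whose products pair, depended on the length used. By all exons *Arnt* lay above *Ahr* in 3 of 7 livers. By the longest single transcript *Arnt* moved from rank 6 to rank 4, and its range of 121 to 163 per kilobase did not overlap with the 46.1 to 120 of *Ahr*. *Nr1i3* moved to 388 per kilobase by that length, and the first 3 ranks by mean stayed as they were. Its range of 270 to 479 per kilobase then overlapped with the 374 to 580 of *Nr1i2*.

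**Figure D2:**
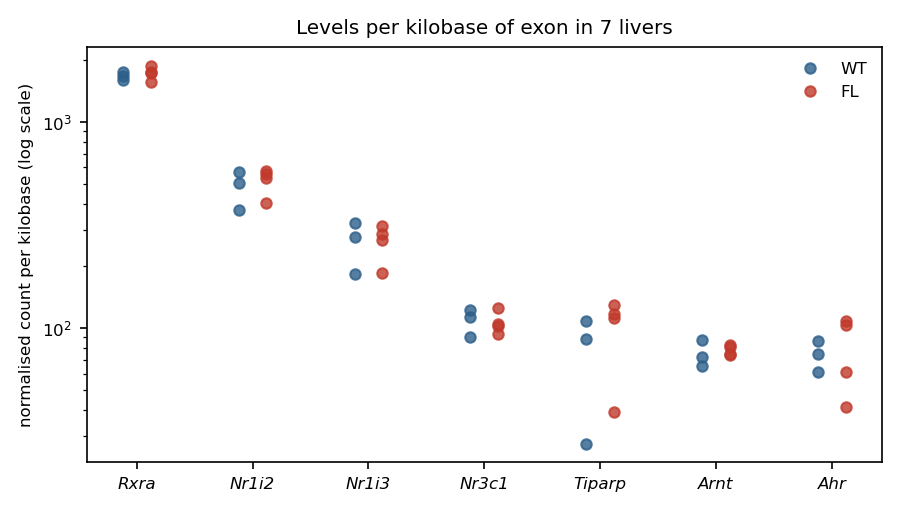
Normalised count per kilobase of exon (log scale) for 7 of the 8 genes, with 1 point per liver, WT in blue and FL in red. *Rxra* lies between 1552 and 1864, *Nr1i2* between 374 and 580 and *Nr1i3* between 183 and 323, and each neighbouring pair among the other 4 genes overlaps. *Ahrr* is left out because 1 of its values is 0.

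*Nr1i3* (CAR, chromosome 1 of GRCm38, 171213970 to 171220701, plus strand) was counted at 1264, 1377, 811 and 1181 across FL livers 1 to 4, and at 1219, 806 and 1426 across WT livers 1 to 3. Each genotype had 1 low liver, FL replicate 3 and WT replicate 2, and the remaining livers lay between 1181 and 1426. The means were 1158 ± 245 (SD, n = 4) in FL and 1150 ± 316 (SD, n = 3) in WT livers. On the log2 scale FL exceeded WT by 0.02 (standard error 0.24, limma adjusted p = 0.999), with a 95% interval of 0.689 to 1.5 for the fold. Its sign turned without WT replicate 2 (-0.21), FL replicate 1 (-0.03) or FL replicate 2 (-0.07), and without both low livers (-0.05). *Tomm40l* overlaps *Nr1i3* on the opposite strand. The kit keeps strand but the strand setting of the counting is not given in the sources used here, so reads of *Tomm40l* may have been counted with *Nr1i3*. The same holds for *Ahr* and *Tiparp*, which overlap the opposite-strand genes *Gm48236* and *4931440P22Rik*. *Arnt* overlaps a pseudogene, *Gm42672*, on its own strand.

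*Nr1i2* (PXR, chromosome 16, 38248323 to 38294824, minus strand) was counted at 1027, 1480, 1367 and 1418 in FL and at 954, 1459 and 1284 in WT livers, in the same order. Replicate 1 was the lowest of both genotypes here, and FL replicate 3 and WT replicate 2 were not low. The log2 difference was 0.11 (standard error 0.18, limma adjusted p = 0.999, 95% interval of the fold 0.803 to 1.45). Over the 35 splits of the 7 livers, an exact permutation test (two-sided) gave p = 0.514, where the smallest possible is 0.0286. Without WT replicate 1 the log2 difference was -0.06.

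*Rxra* (chromosome 2, 27676440 to 27762957, plus strand) was the steadiest gene of the 7 tested, at 9466, 9403, 10179 and 8478 in FL and 9121, 8691 and 9470 in WT livers. FL livers included both the highest and the lowest value. Its log2 difference was 0.04 (standard error 0.11, limma adjusted p = 0.999), and the 95% interval of the fold ran from 0.867 to 1.22. Leaving out WT replicate 2 and FL replicate 3 gave -0.03, and quantile normalisation gave -0.04.

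*Ahr* (chromosome 12, 35497974 to 35535038, minus strand) varied more than CAR or PXR mRNA, at 667, 636, 256 and 375 in FL and 532, 379 and 460 in WT livers. The FL livers formed a higher pair and a lower pair, and the 3 WT livers lay between them. The log2 difference was -0.01 (standard error 0.34, limma adjusted p = 0.999), and the 95% interval of the fold reached from 0.58 to 1.7. The sign depended on single livers. It was 0.26 without FL replicate 3, 0.08 without FL replicate 4, 0.11 without WT replicate 1, and 0.13 without FL replicate 3 and WT replicate 2 together.

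*Arnt* (chromosome 3, 95434388 to 95497240, plus strand), the nuclear partner of AHR and also of hypoxia-inducible factors, was at 594, 663, 646 and 599 in FL and 579, 704 and 523 in WT livers. The range of the WT livers enclosed all FL livers. The log2 difference was 0.06 (standard error 0.13, limma adjusted p = 0.999, 95% interval of the fold 0.855 to 1.28), and -0.03 without WT replicate 3.

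*Tiparp* (chromosome 3, 65528410 to 65555518, plus strand) encodes an ADP-ribosyltransferase that AHR induces and that restrains AHR in return. Its normalised counts were 512, 561, 170 and 486 for FL livers 1 to 4, then 473, 120 and 385 for WT livers 1 to 3. FL replicate 3 and WT replicate 2 lay far below the other livers, which was the widest spread of the 7 genes tested. The log2 difference was 0.49 (standard error 0.56, limma adjusted p = 0.999, 95% interval of the fold 0.567 to 3.46), with p = 0.457 in the exact permutation test. Without WT replicate 2 it turned to -0.12. Without both low livers the means were 520 (3 FL livers) and 429 (2 WT livers), which differed by 0.28 on the log2 scale (standard error 0.12, limma unadjusted p = 0.0425, adjusted p = 0.495). In that fit 9.74% of all tested genes had an unadjusted p under 0.05 (5.17% lower and 4.57% higher in FL), and *Tiparp* was the 1 gene of the 7 among them. None of the 7 passed the adjusted threshold there, against 0.0487% of all genes (0.0162% lower and 0.0325% higher).

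*Ahrr* (chromosome 13, 74211118 to 74292331, minus strand) encodes the AHR repressor, which competes with AHR for ARNT. It was listed at 4, 4, 2 and 0 normalised counts in FL and at 4, 3 and 2 in WT livers. A floor of 3 reads corresponds to between 2.43 and 4.15 normalised counts in these libraries, so its values are at or close to the floor. It was below the mean of 10 required for testing, and no fold is given. The promoter with 3 GCGTG matches printed above thus belongs to a gene with almost no reads in these livers.

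*Nr3c1* (chromosome 18, 39410545 to 39519421, minus strand), the glucocorticoid receptor, was at 961, 802, 786 and 722 in FL and 935, 695 and 864 in WT livers. Replicate 1 was the highest of both genotypes. The log2 difference was -0.02 (standard error 0.15, limma adjusted p = 0.999, 95% interval of the fold 0.781 to 1.24). Leaving out FL replicate 4, WT replicate 1 or WT replicate 3 gave 0.04, 0.07 and 0.01.

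**Figure D3:**
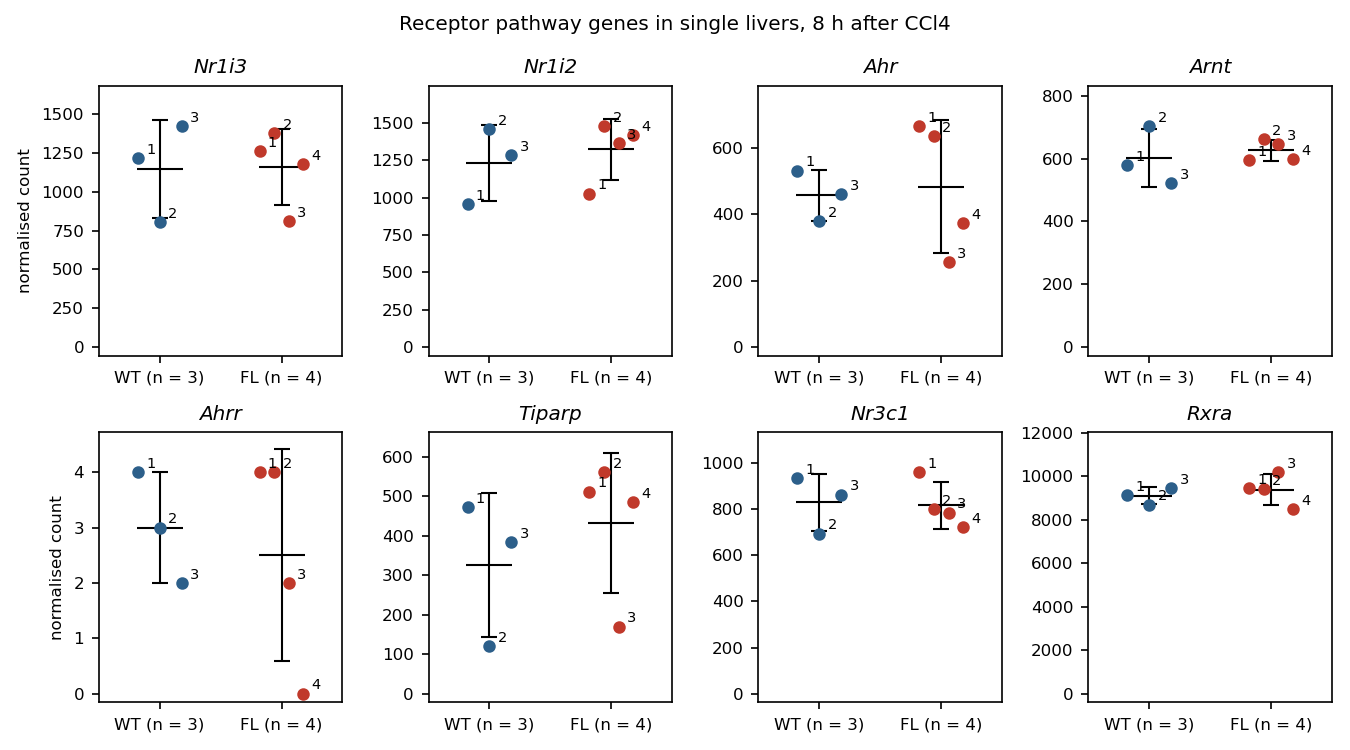
Normalised counts of the 8 genes, with 1 point per liver marked by its replicate number, WT in blue (n = 3) and FL in red (n = 4). Black bars give mean and SD. The genotypes overlap in each panel, and WT 2 and FL 3 are the lowest livers of *Nr1i3* and *Tiparp*.

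*Tiparp*, *Nr1i3* and *Ahr* differed most between livers of the same genotype. *Tiparp* in WT replicate 2 was 0.28 times the mean of the other WT livers, and in FL replicate 3 it was 0.327 times the mean of the other FL livers. The corresponding ratios of *Nr1i3* were 0.609 and 0.637, and those of *Ahr* 0.764 and 0.458. For *Nr1i2* they were 1.3 and 1.04, so PXR mRNA was not low where CAR mRNA was. *Rxra* (0.935 and 1.12), *Arnt* (1.28 and 1.04) and *Nr3c1* (0.773 and 0.949) were not low in both livers to a like degree. On the log2 scale, 2 of the 7 genes, *Tiparp* and *Nr1i3*, were at least 0.5 below the other livers of their genotype in both livers, as were 7.33% of all tested genes. These comparisons describe 2 livers and were made with their values known.

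Markers of liver zones and of other cells moved with these 2 livers. The pericentral hepatocyte markers (9 listed, 7 tested, among them *Glul* and *Cyp2e1*) summed to 13422 normalised counts in WT replicate 2 and 21573 in FL replicate 3, against 45597 to 70229 in the other livers. Of the 7, 6 had their lowest WT value in WT replicate 2, and all had their lowest FL value in FL replicate 3. Periportal markers were highest of their genotype in WT replicate 2 for 6 of 7 and in FL replicate 3 for 7 of 7. Macrophage markers were highest there for 8 of 8 and 6 of 8, with sums of 4872 to 7806 in FL and 4864 to 12545 in WT livers. Stellate cell markers were highest there for 7 of 7 and 5 of 7, endothelial markers for 6 of 7 and 4 of 7, and neutrophil markers for 2 of 3 and 3 of 3. Proliferation markers were highest there for 6 of 6 in both, male-biased liver genes were lowest for 6 of 6 and 4 of 6, and female-biased genes highest for 3 of 3 and 2 of 3. Cholangiocyte markers were lowest in FL replicate 3 for 5 of 5. Hepatocyte markers had median log2 differences of -0.06 and 0.01. The part of any of these in the levels of *Tiparp*, *Nr1i3* and *Ahr* was not tested, and in whole liver fewer cells of a type and less RNA per cell cannot be told apart.

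**Figure D4:**
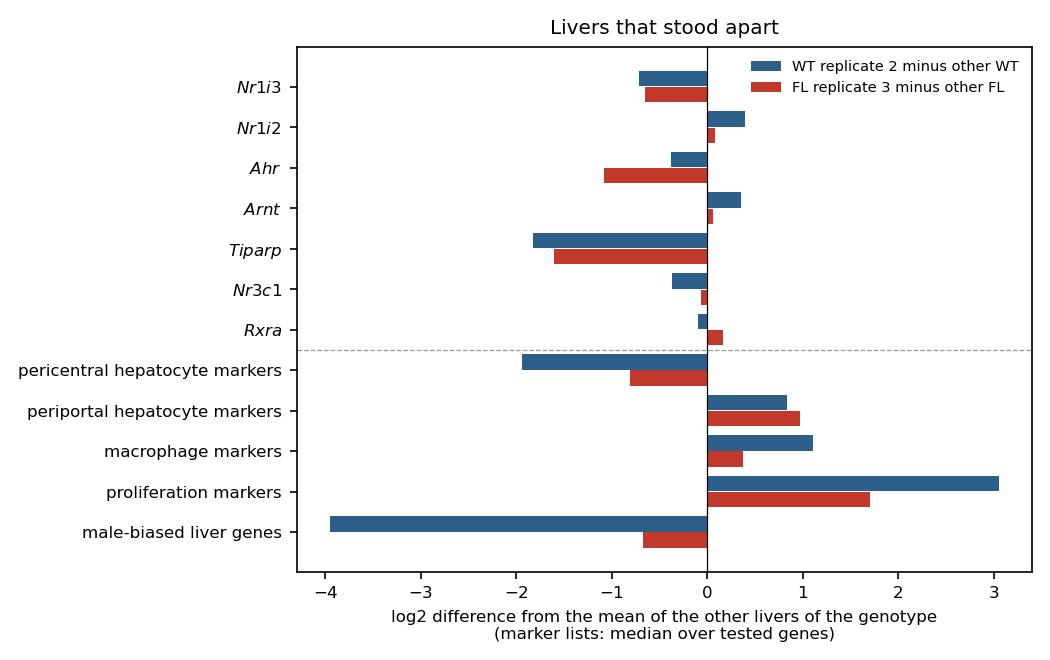
log2 difference of WT replicate 2 (blue) and FL replicate 3 (red) from the mean of the other livers of their genotype, for the 7 tested genes and, below the dashed line, the median of 5 marker lists chosen with their values known. *Tiparp*, *Nr1i3*, *Ahr* and *Nr3c1* (-0.37 and -0.07) point the same way as the pericentral markers (-1.94 and -0.81). *Nr1i2* and *Arnt* point the opposite way.

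For the 3 genes whose log2 values had an SD of at least 0.3, the most similar patterns were sought among 5205 genes with at least that SD. Likeness was the root mean square difference of log2 values over the 7 livers after centring each gene on its mean. Nearest to *Nr1i3* were *Anxa11* (0.04) and *Trnt1* (0.05), both also lowest in WT replicate 2 and FL replicate 3. Nearest to *Tiparp* were *Chic2* and *Il1r1* (0.14 each), and to *Ahr* they were *Acss3* (0.12) and *Klhl28* (0.13).

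Among 10 listed AHR target genes 7 were tested, *Tiparp* among them, and 0 passed. At an unadjusted p under 0.05, 1 was lower, against 1.6% of all genes, and the median log2 fold change was -0.05. *Cyp1a2*, the constitutive hepatic AHR target and a pericentral enzyme, stood at 3489, 2809, 1228 and 2685 in FL and 3679, 1006 and 4048 in WT livers. It was lowest in the same 2 livers as *Tiparp*. *Cyp1a1*, a highly inducible AHR target, stayed at 6 to 25 in FL and 12 to 30 in WT livers. *Nqo1*, a quinone reductase controlled by both AHR and NRF2, ranged from 84 to 139 in FL and from 168 to 267 in WT livers, which did not overlap (log2 fold change -0.90, limma unadjusted p = 0.00421, adjusted p = 0.999). *Ugt1a6b*, a glucuronosyltransferase that shares exons with other Ugt1a genes, differed by 0.29 on the log2 scale (limma adjusted p = 0.999), and by 0.08 without WT replicate 2 and FL replicate 3. Without these livers the median of the AHR targets was -0.29. At an unadjusted p under 0.05, 2 were lower and 1, *Tiparp*, was higher, against 5.17% and 4.57% of all genes in that fit. Of 6 tested chaperones and partners of AHR 0 passed. *Hif1a*, which also pairs with ARNT, and *Ptges3*, the HSP90 co-chaperone p23, had log2 fold changes of 0.20 and 0.17 (limma adjusted p = 0.999 for both).

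Of 11 tested CAR targets 0 passed, while 4 were lower and 0 higher in FL livers at an unadjusted p under 0.05, against 1.6% and 1.59% of all genes, and the median log2 fold change was -0.34. *Cyp2b10*, the classical CAR target, stood at 289, 83, 256 and 151 in FL and at 348, 3040 and 302 in WT livers. The highest value by far was in WT replicate 2, where *Nr1i3* was 806. FL replicate 3, with *Nr1i3* at 811, had a *Cyp2b10* of 256. The FL livers all lay below the WT livers (log2 fold change -1.96, standard error 0.82, limma unadjusted p = 0.0435, adjusted p = 0.999). Without WT replicate 2 the value was -0.89, and without FL replicate 3 as well it was -1.07. The median of the CAR targets was then -0.35, with 5 of 10 tested genes lower and 1 higher at an unadjusted p under 0.05, against 5.17% and 4.57% of all genes in that fit. *Abcc2*, an efflux pump for conjugates, ranged from 3715 to 4484 in FL and from 4945 to 6020 in WT livers (log2 fold change -0.39, limma unadjusted p = 0.0108). *Abcc4*, a sinusoidal efflux pump, was at 225, 220, 742 and 137 in FL and 445, 1168 and 698 in WT livers. *Gadd45b*, a stress gene that CAR induces, had overlapping ranges of 93 to 162 in FL and 59 to 135 in WT livers, and its log2 fold change went from 0.37 to 0.76 without both livers.

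Of 11 tested PXR targets 0 passed. At an unadjusted p under 0.05, 3 were lower and 1 higher, against 1.6% and 1.59% of all genes. Of the 11, 10 were lower in mean in FL livers, where 51.6% of all genes were higher, and the median log2 fold change was -0.54. Without WT replicate 2 and FL replicate 3 the median was -0.30. In that fit 4 were lower and 1 higher at an unadjusted p under 0.05, against 5.17% and 4.57% of all genes. *Cyp3a11*, the main PXR target and a major drug-metabolising enzyme of mouse liver, stood at 25024, 18293, 25002 and 15797 in FL and at 27678, 57805 and 30505 in WT livers. The genotypes did not overlap (log2 fold change -0.83, standard error 0.29, limma unadjusted p = 0.0225, adjusted p = 0.999). The highest value was again in WT replicate 2, and the log2 fold change was -0.49 without that liver. *Abcb1a*, a drug efflux pump that is also an established p53 target, ranged from 53 to 93 in FL and from 145 to 184 in WT livers. Its log2 fold change was -1.17 (limma unadjusted p = 0.000598, adjusted p = 0.999), and the paper called it significant with DESeq2. *Gsta1*, a glutathione transferase, ranged from 54 to 70 in FL and from 76 to 154 in WT livers. *Cyp3a11*, *Cyp2b10*, *Abcb1a* and *Gsta1* have close paralogs between which the counting could have split reads, so their values are uncertain.

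Of 12 tested glucocorticoid receptor targets 0 passed and 0 had an unadjusted p under 0.05, against 3.2% of all genes. In mean 11 were higher in FL livers, where 51.6% of all genes were higher, and the median log2 fold change was 0.50. Of the 12, 8 had their lowest WT value in WT replicate 2, so they do not count as independent results. Without WT replicate 2 and FL replicate 3 the median was 0.32. At an unadjusted p under 0.05, 5 of the 12 were then higher and 0 lower, against 4.57% and 5.17% of all genes in that fit. Its p-values are likely too small, because the livers left out were picked from these values. *Fkbp5*, a co-chaperone and standard readout of the receptor, stood at 3022, 4085, 2538 and 4248 in FL and at 2472, 1622 and 2963 in WT livers (log2 fold change 0.57, limma unadjusted p = 0.0539), and its log2 fold change was 0.33 without WT replicate 2. *Tsc22d3*, which encodes GILZ, ranged from 482 to 967 in FL and from 439 to 583 in WT livers. *Tat*, a liver enzyme of tyrosine breakdown, ranged from 10723 to 36209 in FL and from 11828 to 26692 in WT livers. Among 8 chaperones and ligand enzymes of the receptor 0 passed. *Hsd11b1*, which regenerates active corticosterone, ranged from 5432 to 6657 in FL and from 2289 to 5438 in WT livers (log2 fold change 0.64, limma unadjusted p = 0.0523). Its lowest value was in WT replicate 2, without which the log2 fold change was 0.25.

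Of 13 tested RXR family members and receptors that pair with RXRα 0 passed, with 7 lower and 6 higher in mean in FL livers. *Nr1h4*, the bile acid receptor FXR, ranged from 1932 to 2101 in FL and from 1636 to 1664 in WT livers, which did not overlap (log2 fold change 0.28, limma unadjusted p = 0.0115, adjusted p = 0.999). *Rarg*, a retinoic acid receptor, ranged from 89 to 98 in FL and from 105 to 195 in WT livers, and its log2 fold change went from -0.53 to -0.26 without WT replicate 2. Of 12 nuclear receptor coregulators 0 passed. *Nr0b2*, the corepressor SHP, stood at 24, 18, 162 and 14 in FL and at 27, 148 and 44 in WT livers, and *Nrip1* had a log2 fold change of 0.19 (limma adjusted p = 0.999). Of 11 listed regulators of CAR and PXR 0 passed and 10 were higher in mean in FL livers, where 51.6% of all genes were higher. Of the 11, 9 had their lowest WT value in WT replicate 2. *Cebpb* (log2 fold change 0.84, limma unadjusted p = 0.0366) and *Cebpa* (0.31, unadjusted p = 0.0376) encode C/EBP factors, and without WT replicate 2 their values were 0.51 and 0.20. *Hnf4a*, which drives *Nr1i3* and *Nr1i2* in hepatocytes, ranged from 13355 to 15799 in FL and from 9547 to 13827 in WT livers (log2 fold change 0.31, and 0.15 without WT replicate 2). Without WT replicate 2 and FL replicate 3, 0 genes of the pathway lists passed either. The median of the AHR chaperones and partners then went from 0.19 to -0.07 and that of the glucocorticoid receptor chaperones and ligand enzymes from 0.20 to -0.11. Medians of RXR partners, coregulators and regulators of CAR and PXR were -0.01, -0.08 and 0.10 in that fit.

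Some cell markers also lay to 1 side between the genotypes, though 0 genes of these marker lists passed the adjusted threshold with all 7 livers in the fit. Of all tested genes, 51.6% were higher in mean in FL livers and 1.59% were higher at an unadjusted p under 0.05. Hepatocyte markers were higher in mean in FL livers for 5 of 5 tested genes (median log2 fold change 0.39, 2 at an unadjusted p under 0.05), and male-biased liver genes for 6 of 6 (0.86). Stellate cell markers were lower for 7 of 7 (-0.29), macrophage markers for 7 of 8 (-0.24) and proliferation markers for 6 of 6 (-0.82). In WT replicate 2 these lists summed to 8042, 12545 and 1116. The other WT livers had 2937 to 3220, 4864 to 5513 and 107 to 132. Male-biased liver genes summed to 8702 in WT replicate 2, against 28986 and 30498 in the other WT livers. Of the cholangiocyte markers 4 of 5 were lower (-0.70), with *Krt19* at -2.41 and *Krt7* at -1.78, while *Sox9* was higher at 1.14. Without WT replicate 2 and FL replicate 3, *Sox9* passed the adjusted threshold. The part of these markers in the values of the CAR, PXR and glucocorticoid receptor targets was not tested.

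**Figure D5:**
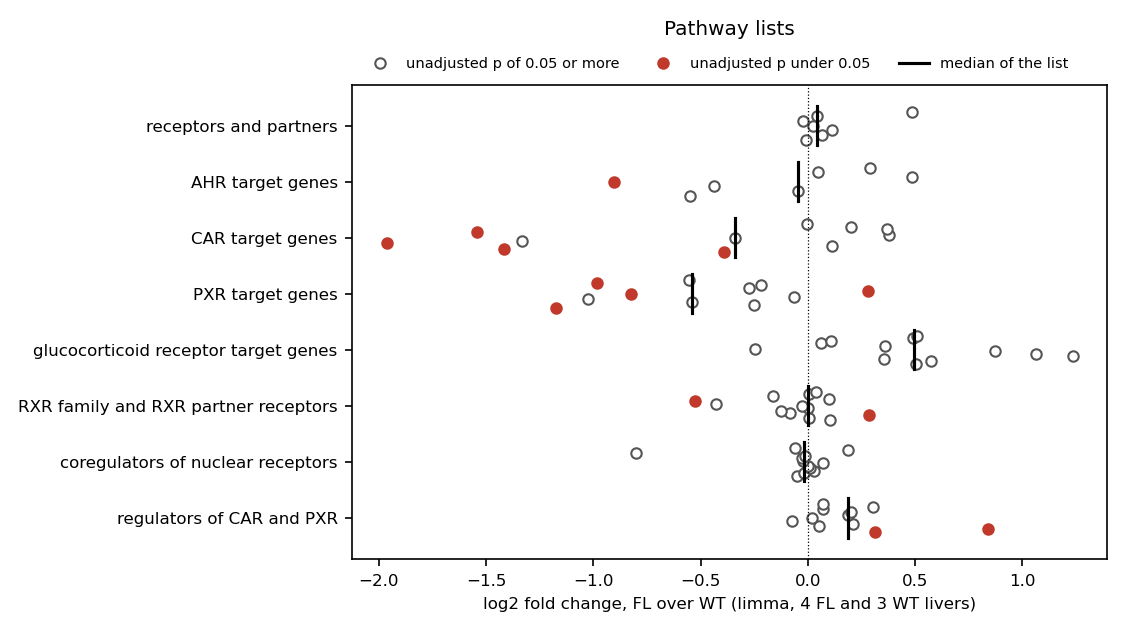
log2 fold change of FL over WT livers from limma for the receptor genes (7 tested) and 7 related lists, with 1 point per tested gene, filled red at an unadjusted p under 0.05, and a black line at the median of each list. The receptors and partners sit near 0, with *Tiparp* at 0.49, while the medians of CAR and PXR targets are -0.34 and -0.54 and that of glucocorticoid receptor targets is 0.50. *Tiparp* is also plotted among the AHR targets. None of these points had an adjusted p under 0.05.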

How the data were processed

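The deposited values are normalised counts, treated here as a score because they are not whole reads. Per the labels and the methods, the authors used Tophat 2.0.13 and Bowtie 2.2.6.0 to align read pairs to release 75 of the mouse annotation, counted with HTSeq (the labels also name featureCounts), divided by DESeq2 size factors and rounded to whole numbers. The 14988 rows held 14851 identifiers, and 120 found on several rows had identical values and were kept once. Symbols, coordinates and lengths came from GENCODE M21 (GRCm38), which named 14839 identifiers. The value of 1 read was estimated from the spacing of low values (0.812 to 1.38). Where it is below 1, rounding leaves the reads ambiguous, so no count test was run. The floor of 3 reads covers counting error only.

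Genotypes were compared with limma 3.58.1 (R 4.3.3, mean-variance trend, no covariate) on log2(normalised count + 1), a scale that understates changes of low genes, for the genes averaging 10 or more. Tests were two-sided, with Benjamini-Hochberg adjustment across all tested genes, and the fit was tested on simulated data. Exact permutation tests used NumPy 2.4.6 in Python 3.11.15, and the 95% intervals used SciPy 1.17.1. Each sample is 1 mouse. The 8 genes and all lists were chosen with earlier results of these data known. Other named genes were *Trp53*, 11 chosen targets and partners (1 of them is not reported here), the 2 genes of lowest p in each pathway list, and the 2 nearest in pattern to each gene with enough spread. Alternatives were other pseudocounts, filters, normalisations and limma settings, the replicate number as a block, leaving out livers, and another gene length.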

Additional observations from a re-analysis of the deposited data

Results flagged for a closer look

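Each of the 34 named genes was checked among the 4 FL livers for an extreme liver by Dixon's criterion. It picked out 2 genes, where chance alone gives about 1.7, and none of the 8 receptor genes. *Nr0b2*, which encodes the corepressor SHP, reached 162 in FL replicate 3, while the remaining FL livers ranged from 14 to 24. *Abcc4*, an efflux pump, reached 742 in the same liver, while the remaining ones ranged from 137 to 225. In WT livers the top values of both, 148 and 1168, belonged to WT replicate 2.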

How the results depend on the processing

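None of the 7 tested receptor genes passed the adjusted threshold under any of the 17 alternatives, and the adjusted p stayed at or above 0.495. At an unadjusted p under 0.05 the count went from 0 to 1 without WT replicate 2 and FL replicate 3, which was *Tiparp*. The signs of the small differences were not stable, and the cause was not tested. With quantile normalisation *Nr1i3* was at -0.02, *Rxra* at -0.04 and *Tat* at -0.04, and with upper quartile scaling *Nr1i3* was at -0.01. Without WT replicate 2 and FL replicate 3, *Nr1i3* was at -0.05, *Rxra* at -0.03, *Ahr* at 0.13 and *Ptges3* at -0.12. With the replicate block, *Ahr* was at 0.08 and *Nr3c1* at 0.04. Leaving out 1 liver at a time moved the log2 fold change between -0.21 and 0.20 for *Nr1i3*, -0.06 and 0.24 for *Nr1i2*, -0.20 and 0.26 for *Ahr*, -0.03 and 0.18 for *Arnt*, -0.12 and 0.89 for *Tiparp*, -0.14 and 0.07 for *Nr3c1*, 0.00 and 0.09 for *Rxra*, -0.69 and 0.31 for *Cyp1a2*, -0.25 and 0.43 for *Tat*, and -0.16 and 0.34 for *Ptges3*. Medians of the PXR, CAR and glucocorticoid receptor targets kept their sign in these fits (-0.75 to -0.37, -0.48 to -0.13 and 0.22 to 0.70), and that of the AHR targets did not (-0.08 to 0.15).

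Over all genes, 2 passed. The paper called more genes with DESeq2, *Abcb1a* among them, so 0 passing genes in a list does not show equal levels. A pseudocount of 5, a stricter filter, no trend and the replicate block each gave 0 by limma (404, 316, 465 and 110 genes at an unadjusted p under 0.05), quantile normalisation gave 1, and dropping WT replicate 2 with FL replicate 3 gave 6. Dropping single livers gave 0 to 5. The deviations of livers sharing a replicate number correlated at 0.44, -0.48 and -0.66 across genes. WT replicate 2 and FL replicate 3, which stood apart, carry different numbers. These values therefore cannot tell whether the numbers pair the mice. Estimated depth was 11900000 reads or more per liver and limits *Ahrr* most.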
